A study of Mus musculus with 7 samples.

Results

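Small leucine-rich proteoglycans are matrix proteins with a core of leucine-rich repeats, and versican is a large hyaluronan-binding proteoglycan of the same tissues. The 10 genes described here were picked by gene symbol, with no threshold on a measured value, though earlier results of these data were known when they were picked: Dcn, Bgn, Aspn, Lum, Fmod, Prelp, Kera, Omd, Ogn and Vcan. They are 10 of the 29869 gene symbols in the table of counts, and all 10 passed the filter on low counts that left 14033 genes for testing. RNA had been taken from whole soleus, a slow-twitch hindlimb muscle, of mice 60 days old. All mice carried mdx, the mutation that removes dystrophin and models Duchenne muscular dystrophy. By the sample titles, 4 libraries came from mdx mice and 3 from mdx/Runx1f/f mice, which also carry a floxed allele of the transcription factor gene Runx1. The titles name 7 different animals. The labels state no Cre driver and not which part of Runx1 is floxed, which limits the second genotype as a model.

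Every direction below rests on the sample titles, which other labels contradict. The series' design text gives n = 3 for mdx and n = 4 for mdx/Runx1f/f, where the titles have these numbers the other way round, and the description field ties most animal numbers to another sample. Runx1 itself also stood against its label. It was at 246 ± 34.5 normalised counts in the 4 libraries labelled mdx and at 813 ± 188 in the 3 labelled mdx/Runx1f/f (SD), a log2 fold change of 1.74 ± 0.18 (SE, adjusted p = 0.00795). A normalised count here is the authors' read count divided by a size factor of the library, and differences were tested by quasi-likelihood in edgeR, with p-values adjusted over all tested genes by the Benjamini-Hochberg method. "Mdx libraries" and "Runx1f/f libraries" stand below for the libraries so labelled. They held between 16218306 and 20847902 counts each. The slow myosin Myh7 was abundant, at 224719 ± 60282 normalised counts in the mdx libraries and 100696 ± 52187 in the others (SD). A list of 11 soleus fibre genes, of which Myh2 marks fast fibres and Acta1, Ttn and Ckm are shared by fibre types, summed to between 99754 and 118888 CPM, counts scaled to the library size, in the mdx libraries and between 71810.0 and 98819.7 in the others. The fast myosin Myh4 stood apart in 2 libraries, with 246072 normalised counts in Runx1f/f replicate 1 and 53268 in replicate 2, against 1293 in replicate 3 and between 739 and 8982 in the mdx libraries.

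In muscle, small leucine-rich proteoglycans are made mainly by fibroblasts and fibro-adipogenic progenitors of the connective tissue sheaths and by tendon cells. Their cores bind fibrillar collagens and set the spacing and width of fibrils, and several bind growth factors of the TGF-beta family. Most carry sugar chains: chondroitin or dermatan sulphate on decorin and biglycan, keratan sulphate on fibromodulin, lumican and keratocan. Versican carries chondroitin sulphate, binds hyaluronan and CD44, and belongs to the provisional matrix of growing and injured tissue. In bulk RNA, fewer cells of a type and less RNA per cell cannot be told apart.

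Promoter sequences are shown because the series is about genes that respond to Runx1, and Runx proteins bind the letters TGTGGT or TGCGGT. RefSeq windows on GRCm38.p6, from 250 bases before to 50 bases after the transcription start, matched 8 of the 10 genes by symbol. No window was used for Dcn and Lum. The letters TGTGGT or TGCGGT, searched on both strands, were found in 3 of the 8 windows, Fmod, Ogn and Vcan, and in 22.41% of the 32851 promoters in the table. TGTGGT alone was in 16.76% of all promoters and TGCGGT alone in 6.45%. The 3 windows with a match and that of Bgn, the most abundant of the matched genes, which holds none, are printed 5′ to 3′ on the strand of the gene. Capitals mark the match, which lies on the opposite strand in all 3 and so reads ACCGCA or ACCACA.
Fmod promoter, GRCm38.p6 chr1:134037004-134037303, plus strand: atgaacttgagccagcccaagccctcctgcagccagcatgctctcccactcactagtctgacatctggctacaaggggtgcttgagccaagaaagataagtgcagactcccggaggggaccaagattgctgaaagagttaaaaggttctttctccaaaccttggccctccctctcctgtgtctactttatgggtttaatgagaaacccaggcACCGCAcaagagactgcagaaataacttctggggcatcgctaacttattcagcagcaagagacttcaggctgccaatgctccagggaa
Ogn promoter, GRCm38.p6 chr13:49607765-49608064, plus strand: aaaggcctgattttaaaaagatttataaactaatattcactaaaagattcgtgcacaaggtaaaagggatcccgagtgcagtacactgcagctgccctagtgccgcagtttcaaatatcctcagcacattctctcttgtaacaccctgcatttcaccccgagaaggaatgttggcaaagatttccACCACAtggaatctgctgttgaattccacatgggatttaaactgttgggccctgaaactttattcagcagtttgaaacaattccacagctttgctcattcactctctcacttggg
Vcan promoter, GRCm38.p6 chr13:89742463-89742762, minus strand: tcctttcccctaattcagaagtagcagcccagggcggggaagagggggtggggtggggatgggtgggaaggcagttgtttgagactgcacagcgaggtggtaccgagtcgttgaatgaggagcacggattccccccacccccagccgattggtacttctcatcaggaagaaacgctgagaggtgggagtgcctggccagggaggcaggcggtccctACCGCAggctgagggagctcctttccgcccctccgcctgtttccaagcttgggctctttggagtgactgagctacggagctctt
Bgn promoter, GRCm38.p6 chrX:73483351-73483650, plus strand: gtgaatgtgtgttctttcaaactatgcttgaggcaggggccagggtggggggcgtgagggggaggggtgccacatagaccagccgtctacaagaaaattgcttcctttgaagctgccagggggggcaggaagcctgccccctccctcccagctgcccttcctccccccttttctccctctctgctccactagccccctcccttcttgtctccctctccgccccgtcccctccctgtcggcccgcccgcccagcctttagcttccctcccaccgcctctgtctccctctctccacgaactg
The first base of the match lies 38 bases before the start in Fmod, 65 before it in Ogn and 34 before it in Vcan. A match is a description of letters and not of a bound site. The AP-1 letters TGANTCA were in 0 of the 8 windows and in 7.81% of all promoters, and the TATA box letters TATAAA in 2 of the 8, Ogn and Aspn, and in 13.62% of all promoters.

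All 10 genes had a higher mean in the Runx1f/f libraries, by 1.02 to 1.38 on the log2 scale with a median of 1.12, a fold of 2.18, where the median of all tested genes was -0.0016. Of them 6, Dcn, Bgn, Lum, Ogn, Prelp and Vcan, rose at an adjusted p below 0.05 and 0 fell. Of all tested genes 5.1% were called higher and 1.85% lower, 6.95% in either direction. The levels of 9 of the 10 did not overlap between groups, all but Kera, where 13.9% of tested genes had every Runx1f/f library above every mdx library and 13.6% had every one below. All 10 were at least 2-fold higher, as 8.56% of tested genes were. DESeq2 called 9 of the 10 higher, all but Omd, against 1491 genes or 10.6% of those tested, and called 905 genes lower. limma-voom called 6 of the 10 higher, against 736 genes or 5.24%, and called 288 genes lower. Counts by these tools for the lists below are in either direction. An unadjusted p below 0.05, given below for some lists, was common over all genes. Among alternative fits, edgeR with upper quartile scaling had 4177 of the 14033 tested genes there in either direction, and limma-voom 4205. The list counts below come from the main edgeR fit, whose own number over all genes is not given here. In the authors' deposited table all 10 have a positive log2 fold change and an adjusted p below 0.05. The share of all genes with both in that table was not counted.

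**Figure D1:**
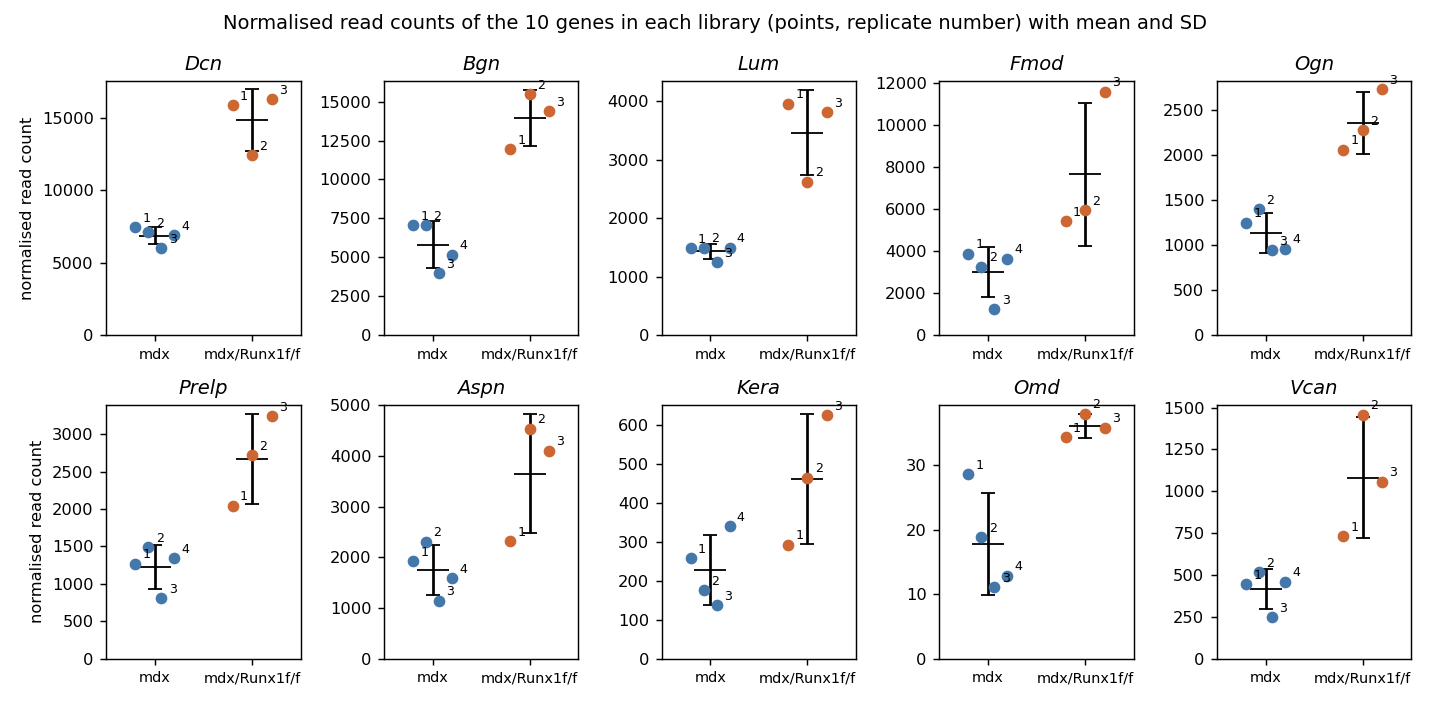
Normalised read count of each of the 10 genes in every library (points), with the libraries labelled mdx and mdx/Runx1f/f side by side. Except for Kera, each gene has all its mdx/Runx1f/f points above its mdx points, and mdx replicate 3 is the lowest library for all 10.

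The genes that carry chondroitin or dermatan sulphate, and their close relative asporin, come first. Dcn encodes decorin, which coats collagen fibrils and binds TGF-beta. It was at 7449, 7128, 6024 and 6924 normalised counts in mdx replicates 1 to 4 and at 15896, 12434 and 16326 in Runx1f/f replicates 1 to 3. The highest mdx library was well under the lowest Runx1f/f library. Its mean rose from 6881 ± 611 to 14886 ± 2134 (SD, n = 4 and 3), by 1.12 ± 0.14 on the log2 scale (SE, edgeR adjusted p = 0.0107). The call held in all 7 fits that left out 1 library.

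Bgn encodes biglycan, the closest relative of decorin, which also acts as a ligand of Toll-like receptors when it is released from matrix. It was at 7054, 7053, 3965 and 5170.0 normalised counts in the mdx libraries and at 11952, 15459 and 14392 in the Runx1f/f libraries, and the groups did not overlap. Mdx replicates 3 and 4 were the low pair of their group. The mean rose from 5811 ± 1518 to 13934 ± 1798 (SD), by 1.27 ± 0.22 on the log2 scale (SE, edgeR adjusted p = 0.0207). The call was lost without mdx replicate 4 (adjusted p = 0.0574) and without Runx1f/f replicate 2 (adjusted p = 0.0650).

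Aspn encodes asporin, which has an aspartate-rich stretch in place of a sugar chain and binds collagen and TGF-beta. It was at 1925, 2312, 1146 and 1593 normalised counts in the mdx libraries and at 2323, 4536 and 4100.3 in the Runx1f/f libraries. Runx1f/f replicate 1 was barely above mdx replicate 2, so the groups touched without overlap. The means were 1744 ± 495 and 3653 ± 1172 (SD), and the log2 fold change of 1.07 ± 0.28 (SE) did not pass the test (edgeR adjusted p = 0.0577). Without Runx1f/f replicate 1 it did (adjusted p = 0.0381). An exon of Aspn overlaps an exon of Cenpp on the opposite strand in GENCODE, and the strand setting of the counting is not given in the sources used here. Cenpp was at 37.5 ± 9.19 and 30.4 ± 3.58 normalised counts, far below Aspn and not higher in the Runx1f/f libraries.

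**Figure D2:**
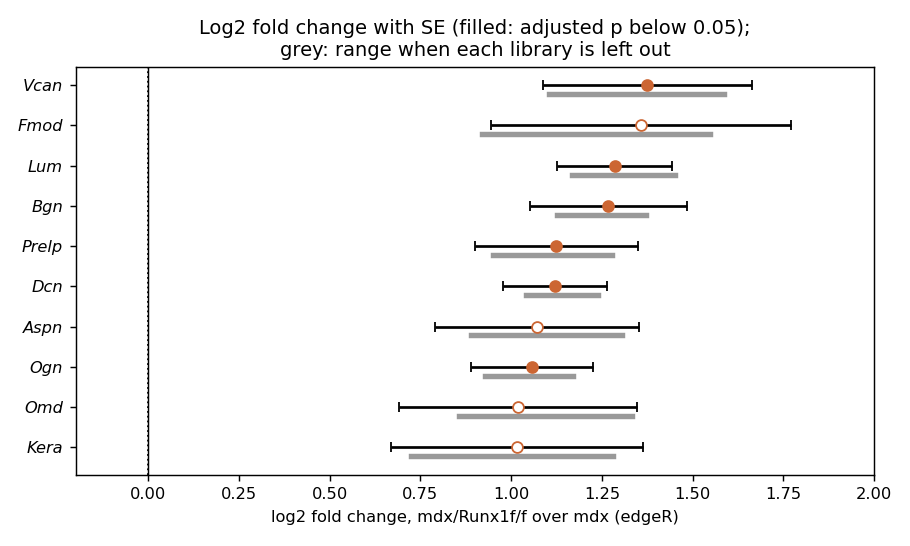
Log2 fold change of each of the 10 genes between mdx/Runx1f/f and mdx libraries from edgeR (points, bars are the standard error). All 10 lie between 1.02 and 1.38, and 6 passed an adjusted p of 0.05.

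Of the keratan sulphate group, Lum encodes lumican, which regulates fibril width and the assembly of fibril bundles. It was at 1483, 1498, 1242 and 1498 normalised counts in the mdx libraries and at 3958, 2623 and 3811 in the Runx1f/f libraries. The mdx libraries lay close together, and all were under the lowest Runx1f/f library, replicate 2. The mean rose from 1430 ± 126 to 3464 ± 732 (SD), by 1.28 ± 0.16 on the log2 scale (SE, edgeR adjusted p = 0.0105), and the call held in all 7 fits that left out 1 library.

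Fmod encodes fibromodulin, a tendon proteoglycan that guides collagen cross-linking. It was at 3865, 3256, 1232 and 3626 normalised counts in the mdx libraries and at 5412, 5949 and 11572 in the Runx1f/f libraries. The groups did not overlap, but each had a library far from the rest: mdx replicate 3 was low and Runx1f/f replicate 3 high. The means were 2995 ± 1201 and 7644 ± 3412 (SD), and the log2 fold change of 1.36 ± 0.41 (SE), among the larger of the 10, did not pass the test (edgeR adjusted p = 0.0798) in this fit or in any that left out 1 library.

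Kera encodes keratocan, best known from the cornea. It was at 258, 175, 137 and 339.6 normalised counts in the mdx libraries and at 292, 463 and 625 in the Runx1f/f libraries. Here the groups overlapped, since Runx1f/f replicate 1 was under mdx replicate 4. The means were 227 ± 90.2 and 460.0 ± 166 (SD), and the log2 difference of 1.02 ± 0.35 (SE) did not pass the test (edgeR adjusted p = 0.103).

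Prelp encodes a proteoglycan with an arginine- and proline-rich end that binds heparan sulphate and anchors basement membranes to collagen. It was at 1267, 1490.3, 813 and 1347 normalised counts in the mdx libraries and at 2044, 2719 and 3241 in the Runx1f/f libraries, with no overlap. The mean rose from 1229 ± 293 to 2668 ± 600.4 (SD), by 1.12 ± 0.22 on the log2 scale (SE, edgeR adjusted p = 0.0312). This call was lost in 5 of the 7 fits that left out 1 library, namely without mdx replicate 1, 2 or 4 or Runx1f/f replicate 2 or 3, with an adjusted p of at most 0.0879. GENCODE places an antisense transcript, Gm15851, over a Prelp exon, and it was not analysed here.

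Omd encodes osteomodulin, an acidic proteoglycan of bone. It was the scarcest of the 10, at 28.5, 18.8, 11.04 and 12.8 normalised counts in the mdx libraries and at 34.3, 37.9 and 35.8 in the Runx1f/f libraries. The groups did not overlap, and mdx replicate 1 stood nearest to the other group. The means were 17.8 ± 7.88 and 36.0 ± 1.83 (SD), with a log2 fold change of 1.02 ± 0.33 (SE) that did not pass the test (edgeR adjusted p = 0.0904). Without mdx replicate 1 it did (adjusted p = 0.0424).

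Ogn encodes osteoglycin, also called mimecan, a small proteoglycan of connective tissue and bone. It was at 1246, 1394, 941 and 959 normalised counts in the mdx libraries and at 2054, 2272 and 2725 in the Runx1f/f libraries, with no overlap. The mean rose from 1135 ± 222 to 2350.2 ± 343 (SD), by 1.06 ± 0.17 on the log2 scale (SE, edgeR adjusted p = 0.0173). The call was lost without Runx1f/f replicate 2 (adjusted p = 0.0537).

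Vcan encodes versican, the hyaluronan-binding member. It was at 446, 518, 247 and 461 normalised counts in the mdx libraries and at 731, 1456 and 1058 in the Runx1f/f libraries. The groups did not overlap, and Runx1f/f replicate 2 was high and replicate 1 low within their group. The mean rose from 418 ± 118 to 1082 ± 363 (SD), by 1.38 ± 0.29 on the log2 scale (SE, edgeR adjusted p = 0.0331). The call stood in only 1 of the 7 fits that left out 1 library, that without Runx1f/f replicate 1.

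Within the Runx1f/f group the highest library differed from gene to gene, while the lowest was mostly the same. Replicate 3 was the highest library for Dcn, Fmod, Ogn, Prelp and Kera, replicate 2 for Bgn, Aspn, Omd and Vcan, and replicate 1 for Lum. Replicate 1 was the lowest of its group for 8 of the 10 genes, and replicate 2 for Dcn and Lum. Animal numbers fall in a lower range, 358 to 363, with 2 libraries of each group, and a higher range, 373 to 375, with 2 mdx libraries and 1 Runx1f/f library. The labels do not say what the ranges are. Within both, all 10 genes were higher in every Runx1f/f library than in every mdx library, by 0.60 to 1.12 on the log2 scale in the lower range and by 1.34 to 2.46 in the higher. The share of all tested genes that separated in this way within a range was not counted. With so few libraries in a range, such a separation is a weak description. The difference between the ranges was not tested. Fitted alone in edgeR, the lower range gave no call for any of the 10 (8 at an unadjusted p below 0.05). It gave no call for any other gene either, and 2669 of its 14051 tested genes had an unadjusted p below 0.05. The higher range has 1 Runx1f/f library, whose spread was not measured and would be assumed to be that of the mdx pair. Only its log2 differences are therefore given here.

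The summed normalised count of the 10 genes was 21888 ± 4326 in the mdx libraries and 50178 ± 6872 in the Runx1f/f libraries (SD), or 0.0801% to 0.143% and 0.259% to 0.329% of a library's counts. The make-up of that sum changed little. Dcn supplied 32.1 ± 4.28% of it in the mdx libraries and 29.9 ± 5.04% in the Runx1f/f libraries, and Bgn 26.3 ± 2.36% and 27.9 ± 3.83%. The share of Fmod ran from 7.82% in mdx replicate 3 to 19.99% in Runx1f/f replicate 3, and that of Dcn from 25.9% in Runx1f/f replicate 2 to 38.2% in mdx replicate 3. For none of the 10 genes did the share separate the groups.

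**Figure D3:**
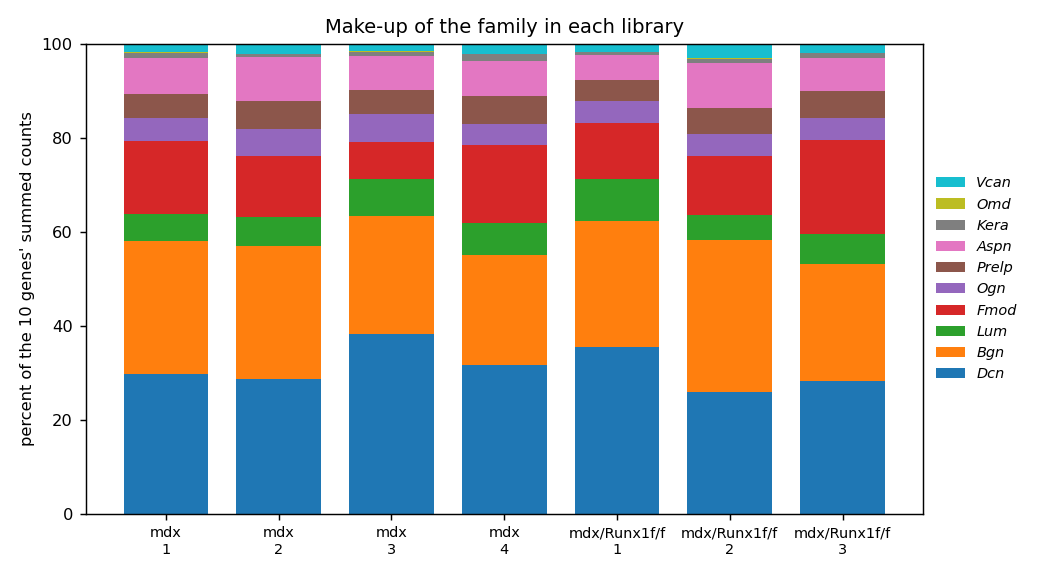
Share of each of the 10 genes in their summed read counts (stacked bars, percent) in every library. Dcn and Bgn are the largest bands in both groups, and the Fmod band is thinnest in mdx replicate 3 at 7.82% and widest in mdx/Runx1f/f replicate 3 at 19.99%.

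Levels can be compared between genes only per length, here as normalised counts per kilobase of exon, with exon lengths from GENCODE on GRCm38. The order of the means was the same in both groups. In the mdx libraries it ran from Dcn at 3272 ± 290.5 and Bgn at 2402 ± 627 through Fmod at 906 ± 363, Aspn at 741 ± 210.4, Lum at 584 ± 51.3, Ogn at 442 ± 86.6 and Prelp at 340.0 ± 80.9 (SD). Kera at 99.8 ± 39.6, Vcan at 30.1 ± 8.49 and Omd at 7.91 ± 3.50 closed it. Neighbours in this order overlapped over the mdx libraries except Bgn and Fmod, Prelp and Kera, Kera and Vcan, and Vcan and Omd. The exons of Vcan sum to 13894 bases over all its isoforms, which lowers its value if short isoforms prevail, and the annotation the authors counted on is not given in the sources used here.

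**Figure D4:**
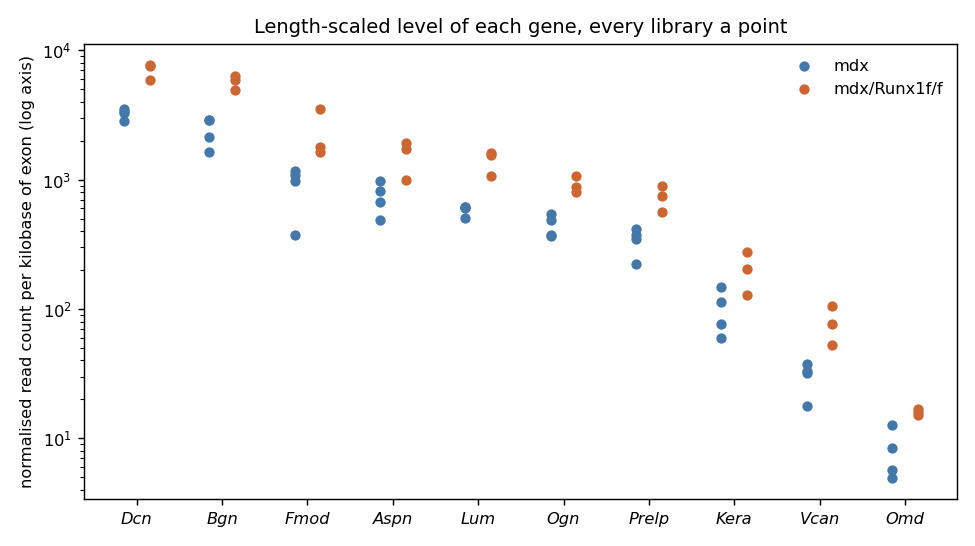
Normalised read count per kilobase of exon for each of the 10 genes (log axis), each library a point. Both groups run in the same order, from Dcn at a mean of 3272 in mdx and 7078 in mdx/Runx1f/f to Omd at 7.91 and 16.01.

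Of the 10 genes, 8 lie in 3 clusters of the mouse genome, by GENCODE: Dcn, Lum and Kera side by side on chromosome 10, Aspn, Omd and Ogn on chromosome 13, and Prelp and Fmod on chromosome 1. Bgn is on the X chromosome, and Vcan lies elsewhere on chromosome 13 beside the link protein gene Hapln1. Of 5 other small leucine-rich proteoglycan genes tested, 0 were called (4 at an unadjusted p below 0.05, 3 called by DESeq2, 0 by limma-voom), with a median log2 fold change of 0.93, 4 above 0 and 1, Chadl, at -0.22. Ecm2, the neighbour of Aspn, was at 744 ± 109 and 1107 ± 166 normalised counts (log2 fold change 0.58 ± 0.15, edgeR adjusted p = 0.0553), and podocan, Podn, at 535 ± 168 and 1014 ± 258 (0.93 ± 0.26, adjusted p = 0.0693). Epyc and Optc, which share clusters with the family, were at 3 counts or fewer in every library.

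The collagens that these proteoglycans bind were higher in the same libraries. Of 11, 9 were called higher and 0 lower, with a median log2 fold change of 1.41. Col14a1, a fibril-associated collagen, rose from 647 ± 160 to 2454 ± 380.0 normalised counts (1.93 ± 0.20, edgeR adjusted p = 0.00795), and the fibril-nucleating Col5a1 from 2311 ± 403 to 6081 ± 745 (1.40 ± 0.16, adjusted p = 0.00842). Both calls held in all 7 fits that left out 1 library.

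Partners of versican come next. Of 10 tested genes for hyaluronan and its binding, 1 was called higher: Cd44, the hyaluronan receptor, from 508 ± 159 to 1283 ± 553 normalised counts (1.34 ± 0.32, edgeR adjusted p = 0.0454), a call that held in 1 of the 7 fits that left out 1 library. Of 6 proteases that cut versican, 1 was called higher: Adamts5, from 391 ± 63.4 to 692 ± 24.5 (0.83 ± 0.13, adjusted p = 0.0181), lost without mdx replicate 3 or Runx1f/f replicate 2.

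The enzymes that build the sugar chains had lower median log2 fold changes than the family's 1.12. For chondroitin and dermatan sulphate, 4 of 21 were called higher and 0 lower, with a median of 0.36. They were the sulphotransferases Chst12 (1.12 ± 0.21, edgeR adjusted p = 0.0268) and Chst14 (0.64 ± 0.13, adjusted p = 0.0326), the polymerising factor Chpf (0.83 ± 0.18, adjusted p = 0.0355) and Csgalnact1. Chst14 lost its call in all 7 fits that left out 1 library, Chst12 in 4 and Chpf in 6. Chsy3 (1.41 ± 0.36, edgeR adjusted p = 0.0549) and the epimerase Dse (1.32 ± 0.34, adjusted p = 0.0562) lay above the family's median but were not called. Of the 21, 19 lay above 0. For keratan sulphate, with a median of 0.43, 0 of 6 were called (3 at an unadjusted p below 0.05, 1 by DESeq2, 0 by limma-voom).

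Among 13 receptors for the family, 4 were called higher and 0 lower, with a median log2 fold change of 0.75 and 10 above 0. Lrp1, which takes up decorin, rose from 3334 ± 1014 to 7821 ± 1380 normalised counts (1.24 ± 0.24, edgeR adjusted p = 0.0288), and Egfr, which decorin binds, from 341 ± 49.8 to 571 ± 77.2 (0.75 ± 0.15, adjusted p = 0.0290). P2rx7 and P2rx4 were the others. Lrp1 and Egfr kept the call in 2 of the 7 fits that left out 1 library, and P2rx7 and P2rx4 in 1. The Toll-like receptors Tlr1 (1.34, edgeR adjusted p = 0.155), Tlr2 (0.59, adjusted p = 0.139) and Tlr4 (0.31, adjusted p = 0.412) were not called. The 3 TGF-beta ligands were not called (1 at an unadjusted p below 0.05, 1 by DESeq2, 0 by limma-voom). Of 20 genes listed as other proteoglycans, 5 were called higher (2 without mdx replicate 3 or Runx1f/f replicate 2, and 3 without mdx replicate 2 or 4), with glypican 6, Gpc6, at 96.0 ± 13.7 and 210.4 ± 15.2 (1.14 ± 0.14, adjusted p = 0.0105) in all 7 of those fits. That list also holds the matrix glycoproteins Smoc1, which was called higher, and Smoc2, which was not. Smoc2 is counted among the fibroblast markers below too.

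Markers of fibroblasts were higher in the same libraries. Of 11 tested markers of fibroblasts and fibro-adipogenic progenitors, 8 were called higher and 0 lower, with a median log2 fold change of 1.09 beside 1.12 for the family. The count fell to 4 without mdx replicate 3 and to 3 without Runx1f/f replicate 2. Their summed level was 1106 to 1527 CPM in the mdx libraries and 2719 to 3204 in the Runx1f/f libraries. Pdgfra, which defines fibro-adipogenic progenitors, rose from 776 ± 134 to 1631 ± 56.7 normalised counts (1.08 ± 0.13, edgeR adjusted p = 0.0105), and the matrix gene Dpt from 1425 ± 194 to 3408 ± 312 (1.27 ± 0.13, adjusted p = 0.00795). Of 10 tendon and myotendinous markers, with a median of 0.87, 3 were called higher, Cilp, Tnc and Comp, and 7 were not called. Among the latter were Thbs4 (1.53, edgeR adjusted p = 0.0504), Tnmd (1.00, adjusted p = 0.176), the tendon factor Scx (-0.47, adjusted p = 0.239), Mkx (0.57, adjusted p = 0.365) and Col22a1 (-0.04, adjusted p = 0.912). Calls in this list numbered 1 without mdx replicate 4 or Runx1f/f replicate 2 or 3, and 2 without mdx replicate 2 or 3 or Runx1f/f replicate 1. The summed level, to which Thbs4 and Cilp gave most, was 543 to 1066 against 1678 to 2626 CPM. The part of these cells in the results was not tested.

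**Figure D5:**
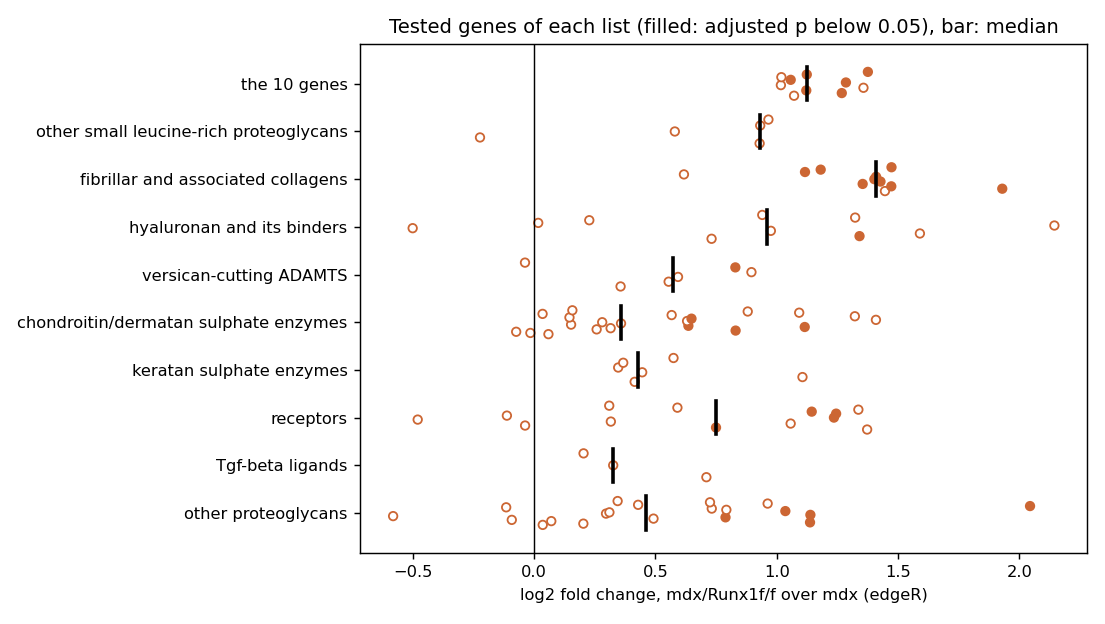
Log2 fold change between mdx/Runx1f/f and mdx libraries for the tested genes of lists named in the text (points), with the median of each list drawn. The 10 proteoglycans have a median of 1.12 and the bound collagens 1.41.

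Other cell types differed in how they moved. The median log2 fold change was 1.70 for macrophage markers, 2.25 for adipocyte markers and 0.65 for Schwann cell markers. It was 0.40 for smooth muscle, 0.37 for satellite cell, 0.44 for cartilage and bone, and -0.02 for endothelial markers. Of 12 macrophage markers 5 were called higher, with a summed level of 181 to 823 against 836 to 2447 CPM. Of 6 adipocyte markers 4 were called higher (30.5 to 75.02 against 106 to 363), and of 7 Schwann cell markers 3 (127 to 159 against 218 to 265). Macrophage calls numbered 1 without mdx replicate 2, 3 or 4 or Runx1f/f replicate 1 or 2. Adipocyte calls numbered 0 without mdx replicate 2, 3 or 4 or Runx1f/f replicate 2, and 2 without Runx1f/f replicate 3. Schwann cell calls numbered 0 without mdx replicate 3 and 1 without mdx replicate 2 or 4 or Runx1f/f replicate 2. Of 9 endothelial markers, each of the 3 tools called 0, and 0 had an unadjusted p below 0.05 (667 to 1112 against 774 to 982). edgeR also called 0 of 8 smooth muscle markers (5 at an unadjusted p below 0.05, 2 called by DESeq2, 0 by limma-voom; 705 to 981 against 883 to 1168) and 0 of 8 satellite cell markers (4, 1 and 0; 381 to 660 against 494 to 1074). Of 10 cartilage and bone markers, 3 were tested and 0 called by each tool or at an unadjusted p below 0.05 (12.7 to 32.9 against 23.6 to 41.9), and Col9a1, Matn1, Sp7 and Bglap were at 3 counts or fewer in every library. The 11 soleus fibre genes, slow, fast and shared, had a median of -0.92 with 0 called (3 at an unadjusted p below 0.05, 2 by DESeq2, 0 by limma-voom). The part of these differences in the results on the proteoglycans was not tested.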

How the data were processed

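The authors deposited 1 table with raw read counts per gene and library, made with TopHat2 2.0.10 and HTSeq on mm9, per the submitters' processing notes. It also holds the authors' normalised counts, a signal equal to the count over a size factor, and their deposited log2 fold changes, standard errors, p-values and adjusted p-values, with DESeq2 1.6.3 named in those notes. The sources used here do not give the strand setting, annotation or multi-mapping treatment.

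Groups came from sample titles, and columns were joined by the animal numbers in them. All pairs of libraries differed by more than sampling noise (lowest chi-square 15.8 per degree of freedom). R 4.3.3 with edgeR 4.0.16 was used on the raw counts: filterByExpr (14033 genes kept, 99.9% of counts), TMM scaling and a quasi-likelihood test of group alone. P-values were adjusted over those genes (Benjamini-Hochberg), with calls below 0.05. SE is the log2 fold change over the root of F. DESeq2 1.42.0 and limma 3.58.1 (voom) were alternatives. The steps were tested on simulated data.

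The members and lists were chosen with earlier results of these data known. Named genes were the members, Runx1, up to 3 genes per list with the smallest p, and the 2 genes of nearest profile per member (mean normalised count of at least 20). Csgalnact1, P2rx4, Chadl, Epyc, Optc, Col9a1, Matn1, Sp7, Bglap, Cenpp, Gm15851, Hapln1, Myh4, the soleus fibre and tendon genes beyond the first 3, and flanking genes were named outside that rule after values were seen. So were Smoc1, Smoc2, Chsy3, Dse, Tlr1, Tlr2 and Tlr4. Exon lengths came from GENCODE M21 and promoters from RefSeq, both on GRCm38, and no coordinate was taken from mm9.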

Additional observations from a re-analysis of the deposited data

Results flagged for a closer look

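Among 21 sets of 4 mdx values tested for a sample far from the others, 1 stood out: the normalised count of Lum, where replicate 3 at 1242 lay far below the other 3, which were within 1483 to 1498. The gap was 0.944 of the group's range, above Dixon's critical value for 4 samples. With this many sets, 1 such gap is about what chance gives. Mdx replicate 3 was also the lowest of all 7 libraries for each of the 10 genes. Without it, Lum kept its call.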

How the results depend on the processing

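Of 199 values of the 10 genes over 20 alternatives, 154 kept direction and side of the threshold, 28 lost the call, 9 gained it and 8 changed sign. DESeq2 called 1491 genes higher and 905 lower against 715 and 260, and 76 and 3 of the other listed genes against 47 and 0. Leaving out 1 library gave 2 to 7 of the 10 proteoglycans, 173 to 641 genes higher and 17 to 209 lower, and 15 to 49 other listed genes higher and 0 to 1 lower. With the title number as a replicate block, 2 of the 10 (Dcn and Lum), 240 genes higher, 80 lower and 23 other listed genes were called. Same-numbered libraries correlated at -0.01, 0.24 and 0.28, so the numbers are not shown to pair animals. With animal number range as a covariate, 1246 genes were higher and 582 lower, and 71 and 1 of the other listed genes. In animals 358 to 363 alone 0 genes were called in any of these counts (2669 at an unadjusted p below 0.05), and Runx1 was at 1.77 (adjusted p = 0.131). In animals 373 to 375 alone, with 1 Runx1f/f library assumed to vary like the others, 1361 genes were higher and 440 lower, and 82 and 1 of the other listed genes. With Runx1f/f replicate 3 as the only library of its group, an alternative added after seeing the data because replicates 1 and 2 held more Myh4, 2 of the 10, 96 genes higher, 2 lower and 6 other listed genes were called, and Runx1 was at 1.28 (adjusted p = 0.0558).

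Joining the columns through the description field assigns most columns to another sample and was the sole alternative that turned a direction among the 10 genes and Runx1. It gave 0 calls among the 10 and the other lists, 5 genes higher and 3 lower, Runx1 at -0.80, and Dcn at -0.14, Bgn at -0.40, Lum at -0.13, Ogn at -0.18, Prelp at -0.061, Aspn at -0.28, Omd at -0.59 and Vcan at -0.42 on the log2 scale. Some alternatives held fewer libraries, and this one used another assignment. Why the counts moved between alternatives was not tested. The share of each gene within the family was within the replicate spread per kilobase too. Omd had the lowest counts of the 10 genes, 10 to 50 per library.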

Other observations

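The genes whose profile over the 7 libraries was nearest to each proteoglycan were sought among 12144 genes, by the root mean square difference of centred log2 CPM. Nearest to Dcn were C1s, a complement protease, at 0.076 and the actin-severing Gsn at 0.080. Lum was nearest to Colec12 at 0.102 and to Dcn at 0.103, the sole case of another of the 10 genes among the nearest pair. Ogn lay nearest to H2-D1 at 0.089 and Pdgfra at 0.091, Prelp to Cpxm2 at 0.099 and Pi16 at 0.105, and Bgn to Man1a at 0.086 and Nnmt at 0.088. Vcan was nearest to the collagen gene Col16a1 at 0.131 and to Fstl1 at 0.166, Aspn to Il13ra1 at 0.144 and Itprip at 0.150, and Omd to Il1rl2 at 0.131 and Syde2 at 0.134. Fmod had no near profile, with Clec11a at 0.292 and Cpxm2 at 0.297, and Kera lay at 0.231 from Fam57a and 0.259 from Mmd. All these profiles share the group difference.

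Of 10 coding genes that flank the gene clusters, Bgn and Vcan, a choice made after the data were seen, 8 were tested and 1 was called: Atp2b4, a calcium pump gene beside the chromosome 1 cluster, from 394 ± 34.96 to 632 ± 70.3 normalised counts (log2 fold change 0.69 ± 0.12, edgeR adjusted p = 0.0201). Btg1, beside Dcn, was at 364 ± 21.9 and 485 ± 90.1 (0.42 ± 0.13, adjusted p = 0.0795), and Nol8, beside Ogn, at 317 ± 22.2 and 313 ± 43.9 (-0.01 ± 0.12, adjusted p = 0.961).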
